A study of Mus musculus with 8 samples.

Results

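The Slc25 genes encode the mitochondrial carriers of the mouse. They were taken here as every protein-coding gene whose symbol is Slc25a followed by digits only, which gave 47 of the 55487 genes in the deposited tables. Of the 47 carriers, 42 passed the filter on low counts, among 14228 genes tested. The family was chosen by the p-value of 1 member, Slc25a48, which ranked among the smallest when these same libraries were compared. The difference of Slc25a48 between the genotypes is therefore given as a description, with no test, and the other 46 members came in by their names alone.

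RNA-seq was made from LLC cells in culture, a line from Lewis lung carcinoma that is used as a mouse model of non-small cell lung cancer. There were 4 libraries of wild-type cells and 4 of ΔAgo2 cells, in which Ago2, the Argonaute protein that carries microRNAs to their targets, was knocked out with a lentiviral CRISPR-Cas9 vector under puromycin selection. Single-cell clones were sorted in the making of the ΔAgo2 line, and which clone or clones gave these libraries is not given in the sources used here, so a property of a clone and an effect of the genotype cannot be told apart. Both groups grew in the same serum-containing medium and all 8 libraries carry the same batch label. The titles call the replicates biological, without saying that they were separate cultures, so p-values measure the spread between these samples.

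Mitochondrial carriers are small proteins that sit in the inner membrane of mitochondria and exchange a metabolite, nucleotide, cofactor or ion between the cytosol and the matrix. Most are built from repeats of one fold and work by opening to one side of the membrane at a time. The ADP/ATP carriers and the phosphate carrier supply ATP synthase with its substrates and let the ATP out, and the other members link mitochondria to amino acid, lipid, nucleotide, iron and cofactor metabolism. A few members lie elsewhere, such as Slc25a17 in peroxisomes and Slc25a46 in the outer mitochondrial membrane. All are encoded in the nucleus, made in the cytosol and inserted by the TIM22 complex if they go to the inner membrane.

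The libraries held 39628101 to 68530912 counts, and carriers took 0.276% to 0.333% of them. Wild-type replicate 4 stood apart from the other libraries of its group. Its median Spearman correlation with them was 0.864, against 0.948 or more for the other wild-type and 0.985 or more for the ΔAgo2 libraries. Mitochondrially encoded genes took 0.540% of its counts and 2.39% to 4.51% of the counts in the other 7. Counts and medians over the carriers, and the fold changes that moved most with it, are given with and without it. Ago2 itself had 119 to 520 CPM (counts scaled to the library size) in wild-type and 293 to 408 CPM in ΔAgo2 libraries, ranges that overlap, so its transcript gives no check of the labels. The lowest wild-type value was that of replicate 4. The paper measured Ago2 protein in wild-type and ΔAgo2 LLC cells by Western blot, which these data do not cover. Of the markers of the labelled lung carcinoma, the keratins Krt8 and Krt18 were at 300.8 and 497 TPM (transcripts scaled to gene length and library total) on average in wild-type cells and the mesenchymal marker Vim at 2751 TPM. Epcam and Cdh1 had at most 1 and 9 counts in any library, Sftpc at most 1, and Nkx2-1 and Scgb1a1 none. Of the leukocyte markers, Ptprc had at most 2 counts and Cd3e 0, while Cd68 had 241 to 2338.

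Promoter sequences are shown for 3 members, Slc25a48 because its counts separated the genotypes, and Slc25a5 and Slc25a4 because these ADP/ATP carriers were among the 3 members with the highest levels. Each runs from 250 bases before to 50 bases after the RefSeq transcript start (GRCm38.p6), 5′ to 3′ on the gene's strand. Capitals mark the letters TATAA, the core of a TATA box.
Slc25a48 promoter, chr13:56438105-56438404, plus strand: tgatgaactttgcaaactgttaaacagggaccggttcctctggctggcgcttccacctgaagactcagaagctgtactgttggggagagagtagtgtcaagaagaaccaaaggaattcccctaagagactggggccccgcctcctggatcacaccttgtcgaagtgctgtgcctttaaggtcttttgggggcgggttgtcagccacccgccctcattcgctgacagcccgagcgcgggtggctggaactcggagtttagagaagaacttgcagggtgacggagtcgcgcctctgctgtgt
Slc25a5 promoter, chrX:36795347-36795646, plus strand: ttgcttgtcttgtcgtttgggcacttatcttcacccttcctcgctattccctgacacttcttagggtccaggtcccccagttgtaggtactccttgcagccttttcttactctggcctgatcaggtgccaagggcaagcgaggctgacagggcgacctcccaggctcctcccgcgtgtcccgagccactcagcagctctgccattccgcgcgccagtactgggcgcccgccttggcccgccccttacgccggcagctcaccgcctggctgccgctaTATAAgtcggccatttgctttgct
Slc25a4 promoter, chr8:46211013-46211312, minus strand: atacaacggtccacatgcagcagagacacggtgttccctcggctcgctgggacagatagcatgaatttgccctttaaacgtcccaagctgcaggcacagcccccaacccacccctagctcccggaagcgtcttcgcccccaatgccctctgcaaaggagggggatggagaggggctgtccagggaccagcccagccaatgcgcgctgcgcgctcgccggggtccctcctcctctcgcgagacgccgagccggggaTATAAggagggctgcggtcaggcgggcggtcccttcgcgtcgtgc
The Slc25a48 window held no TATAA and 14 CpG pairs, against 18 in Slc25a5 and 25 in Slc25a4. In Slc25a5 the TATAA began at base 27 of the RefSeq transcript and 28 bases before the start of the gene in the GENCODE annotation, which lies further downstream. In Slc25a4 it began at base 6 of the RefSeq transcript. There the GENCODE start of the gene, at 46211284 on the minus strand, lies further upstream, so the TATAA falls inside the GENCODE gene. RefSeq gave 46 promoters for 36 of the 47 members. TATAA, searched on both strands, was found in 5 of the 46, or 10.9%, and in 24.9% of all 32851 promoters. CGCATGCG, letters from the core of the nuclear respiratory factor 1 motif and the same on both strands, was in none of the 46 and in 1.87% of all promoters. The median carrier promoter had 15 CpG pairs and the median of all promoters 7. A match of letters is a description and not a binding site.

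In wild-type cells, the 5 carriers with the highest levels were Slc25a5, Slc25a39, Slc25a4, Slc25a3 and Slc25a24, and the order of these levels rests on TPM, which divides counts by gene length. Slc25a5, the ADP/ATP carrier of most dividing cells, was at 438, 812, 379 and 592 TPM in wild-type replicates 1 to 4 and 648, 666, 430.3 and 499 TPM in ΔAgo2 replicates 1 to 4. The means were 555 ± 193 and 561 ± 115 TPM (SD, n = 4), and the groups overlapped. Slc25a39, which takes up glutathione, was at 275, 289.6, 409 and 709 TPM and 338, 374, 307.7 and 340.2 TPM in the same order, with its highest value in wild-type replicate 4. Slc25a4, the ADP/ATP carrier best known from heart and muscle, was at 359 ± 114 TPM in wild-type and 379 ± 36.5 TPM in ΔAgo2 cells (SD, n = 4). The phosphate carrier Slc25a3 was at 324 ± 102 and 294 ± 48.6 TPM, and Slc25a24, an ATP-Mg/phosphate carrier regulated by calcium, at 186 ± 134 and 256.0 ± 51 TPM. The wild-type means of neighbours in this order lay within 1 SD of each other except for Slc25a3 and Slc25a24, whose ranges still overlapped.

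These 5 members made up 61.4% ± 5.67 of the summed TPM of all carriers in wild-type and 61.4% ± 3.61 in ΔAgo2 cells (SD, n = 4). In all, 8 members were above 100 TPM on average in wild-type cells, 22 were between 10 and 100, 10 tested members were between 1 and 10, and Slc25a2 and Slc25a48 were below 1. The summed TPM of the 47 carriers was 2495, 3547, 2778 and 3084 in wild-type replicates 1 to 4 and 3191, 3184, 2670 and 2821 in ΔAgo2 replicates 1 to 4. The means, 2976 ± 450.3 and 2967 ± 262 (SD, n = 4), differed by less than the spread between libraries (exact permutation test, two-sided, p = 0.943). The 5 members that did not pass the filter had at most 3 counts in any library. Slc25a18, a glutamate carrier, and Slc25a54 had 0 in all 8, the ADP/ATP carrier Slc25a31, known from testis, and Slc25a34 had at most 2 in any library, and Slc25a41 had 0 to 3 counts in wild-type and 0 in ΔAgo2 libraries. At these totals, 3 counts, taken as the limit that a count of 0 allows, come to 0.0425 to 0.0931 CPM.

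**Figure D1:**
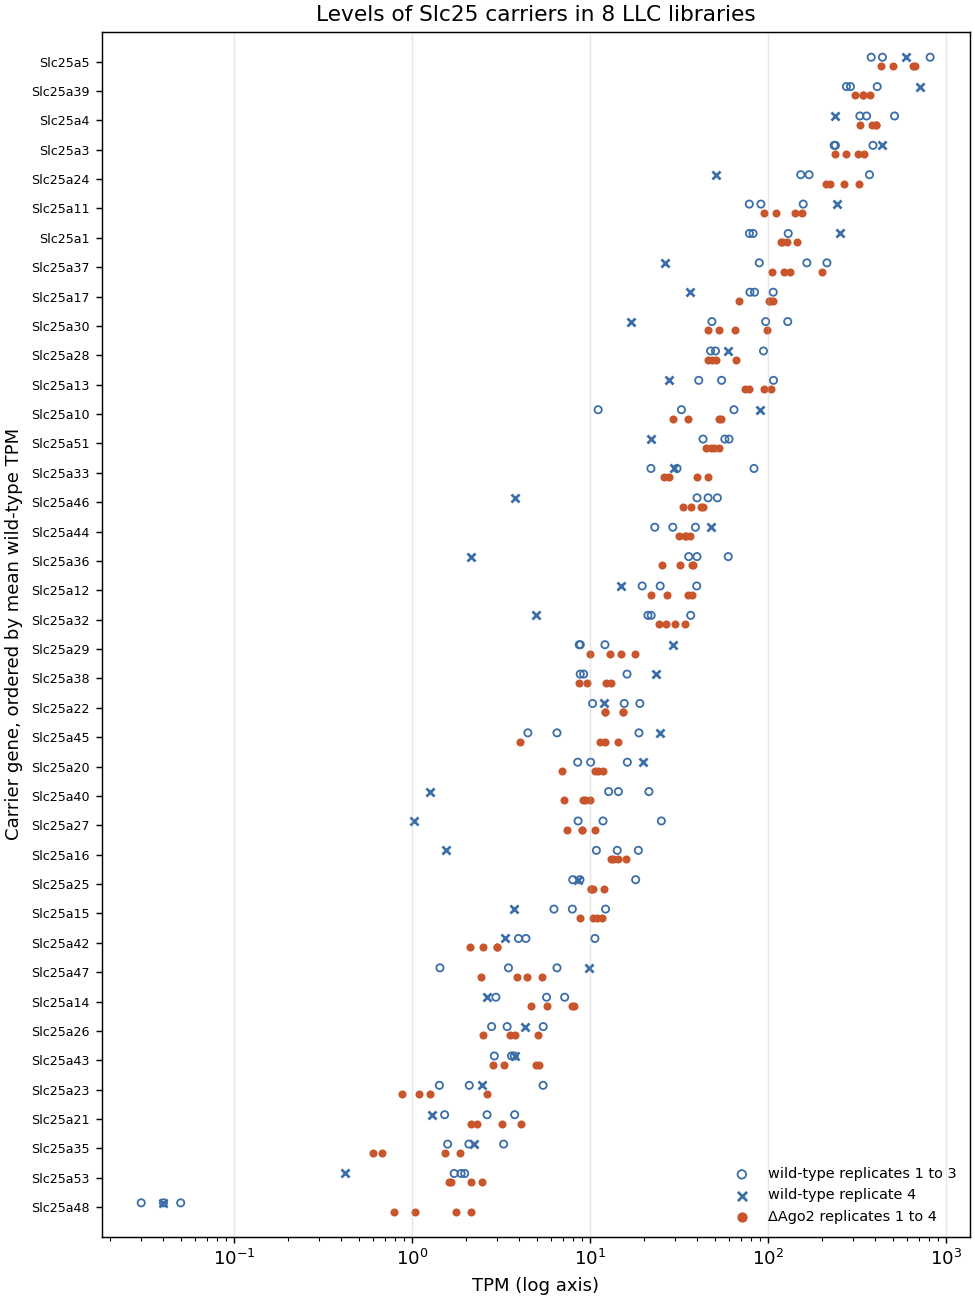
Level of each carrier in each library, in TPM on a log axis, for 40 members with a TPM above 0 in all 8 libraries, ordered by mean wild-type TPM. Open circles are wild-type replicates 1 to 3, crosses wild-type replicate 4 and filled circles the ΔAgo2 libraries. Slc25a48, at the bottom, is the member whose genotypes lie far apart, and the crosses lie at the edge of many other rows.

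Slc25a48 (ENSMUSG00000021509.5, chr13:56438355-56474239, plus strand), a carrier of the inner membrane that has been linked to choline import, was counted 2, 2, 3 and 2 times in the wild-type libraries, in the order of their replicates, and 96, 84, 32 and 52 times in the ΔAgo2 libraries. The wild-type libraries were all at or under the floor of 3 counts, and none of them reached the lowest ΔAgo2 library. Of all tested genes, 3.09% were higher in ΔAgo2 cells without overlap on CPM, and since the family was chosen through this gene, nothing is read from that share. On the CPM scale, the counts were 0.0407, 0.0283, 0.0446 and 0.0621 in wild-type and 1.56, 2.00, 0.784 and 0.984 in ΔAgo2 libraries, with means of 0.0439 ± 0.0140 and 1.33 ± 0.552 CPM (SD, n = 4). The pooled counts, 9 against 264, divided by the scaled library sizes of each group, gave a ratio of 32.6. Its 95% exact interval of 16.9 to 72.1 covers counting error alone and is no test. The spread between libraries, the choice of the family through this gene, and PCR copies counted more than once lie outside it. The ratio was 28.3 to 36.1 with 1 library left out at a time and 35.8 without wild-type replicate 4. In a bulk culture, more cells with the transcript and more transcript per cell cannot be told apart.

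The level of Slc25a48 in ΔAgo2 cells was still low. Its mean of 1.43 ± 0.630 TPM there, against 0.0400 ± 0.00816 TPM in wild-type (SD, n = 4), put it at rank 40 of the 47 carriers, where it had been at rank 43, and above 16.1% of the genes tested. Within the ΔAgo2 group its CPM varied, with replicates 1 and 2 above replicates 3 and 4. These replicates 1 and 2 were also the closest pair of libraries, with a chi-square of 22.8 per gene against 89.0 to 126 for the other ΔAgo2 pairs. That is above sampling noise, and they were kept as 2 samples.

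Of the other protein-coding genes within 200 kb of Slc25a48, 2 were tested and neither passed an adjusted p of 0.05 in edgeR's test. Neurog1, Cxcl14, Gm3045 and Il9 had 0 counts in all 8 libraries, and Lect2 had 0 to 19 and was not tested. Fbxl21 (a gene of the F-box family, 48233 bases away) was at 2.54, 0.978, 2.84 and 0.962 CPM in wild-type replicates 1 to 4 and 4.87, 4.09, 4.09 and 2.33 CPM in ΔAgo2 replicates 1 to 4. The lowest ΔAgo2 library lay within the wild-type range and the other ΔAgo2 libraries above it. The log2 fold change of 1.07 (standard error 0.48) had an edgeR adjusted p of 0.678. Its unadjusted edgeR p was 0.0496, where 7.34% of all tested genes had one under 0.05. Tgfbi, which encodes an extracellular matrix protein and lies 135284 bases away, had a log2 fold change of -0.28 (standard error 0.55, edgeR adjusted p = 0.912).

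**Figure D2:**
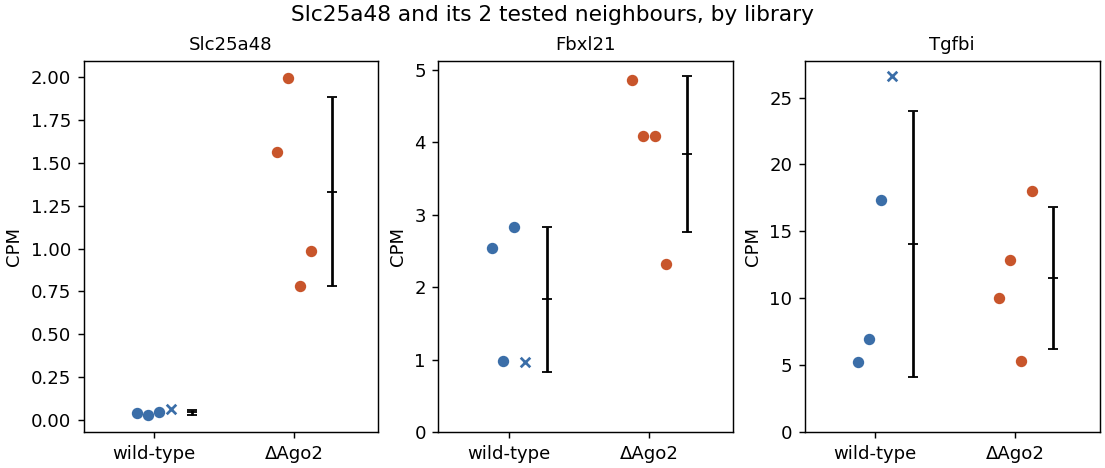
CPM of Slc25a48 and of the tested neighbours Fbxl21 and Tgfbi in each wild-type and ΔAgo2 library, on axes of their own, with the mean and SD (n = 4) as a black bar. The cross is wild-type replicate 4. The ΔAgo2 points of Slc25a48, 0.784 to 2.00 CPM, lie above all wild-type points, and those of the other genes overlap the wild-type range.

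Of the other 41 tested carriers, 0 passed an adjusted p of 0.05 between ΔAgo2 and wild-type cells in edgeR's quasi-likelihood test, where 0.295% of all tested genes did. The adjusted p-values of these carriers ran from 0.418 to 0.999. At an unadjusted p under 0.05 there were 3, all lower in ΔAgo2 cells, among them Slc25a42 and Slc25a35, where 7.34% of all tested genes passed in either direction and 4.62% as lower. DESeq2 called 0 of the 41 after adjustment, with 2.23% of the genes it adjusted called, and 4 before adjustment, where 6.48% of the genes with a p passed. On CPM, 2 of the 41, among them Slc25a42, had groups that did not overlap, both lower in ΔAgo2 cells, where 6.07% of all tested genes did not overlap in either direction and 2.98% as lower.

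The log2 fold changes of the 41 lay between -1.25 and 0.49, with 28 below 0 and 13 above, and 58.8% of all tested genes were also below 0. Their median was -0.26, beside -0.11 for all tested genes. Without wild-type replicate 4 the median was -0.072, beside -0.037 for all genes, with 21 below 0 (as were 54.2% of all genes) and 20 above. Of the 41, 15 changed direction. With no share over all genes beside this count, nothing particular to carriers is read from it. Without that replicate, 3 carriers had an unadjusted p under 0.05 (among them Slc25a40 and Slc25a42), where 12.6% of all genes had one. When GC content was corrected for library by library, the median was -0.095, beside -0.085 for all genes, and 4 carriers had an unadjusted p under 0.05, beside 10.1% of all genes.

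**Figure D3:**
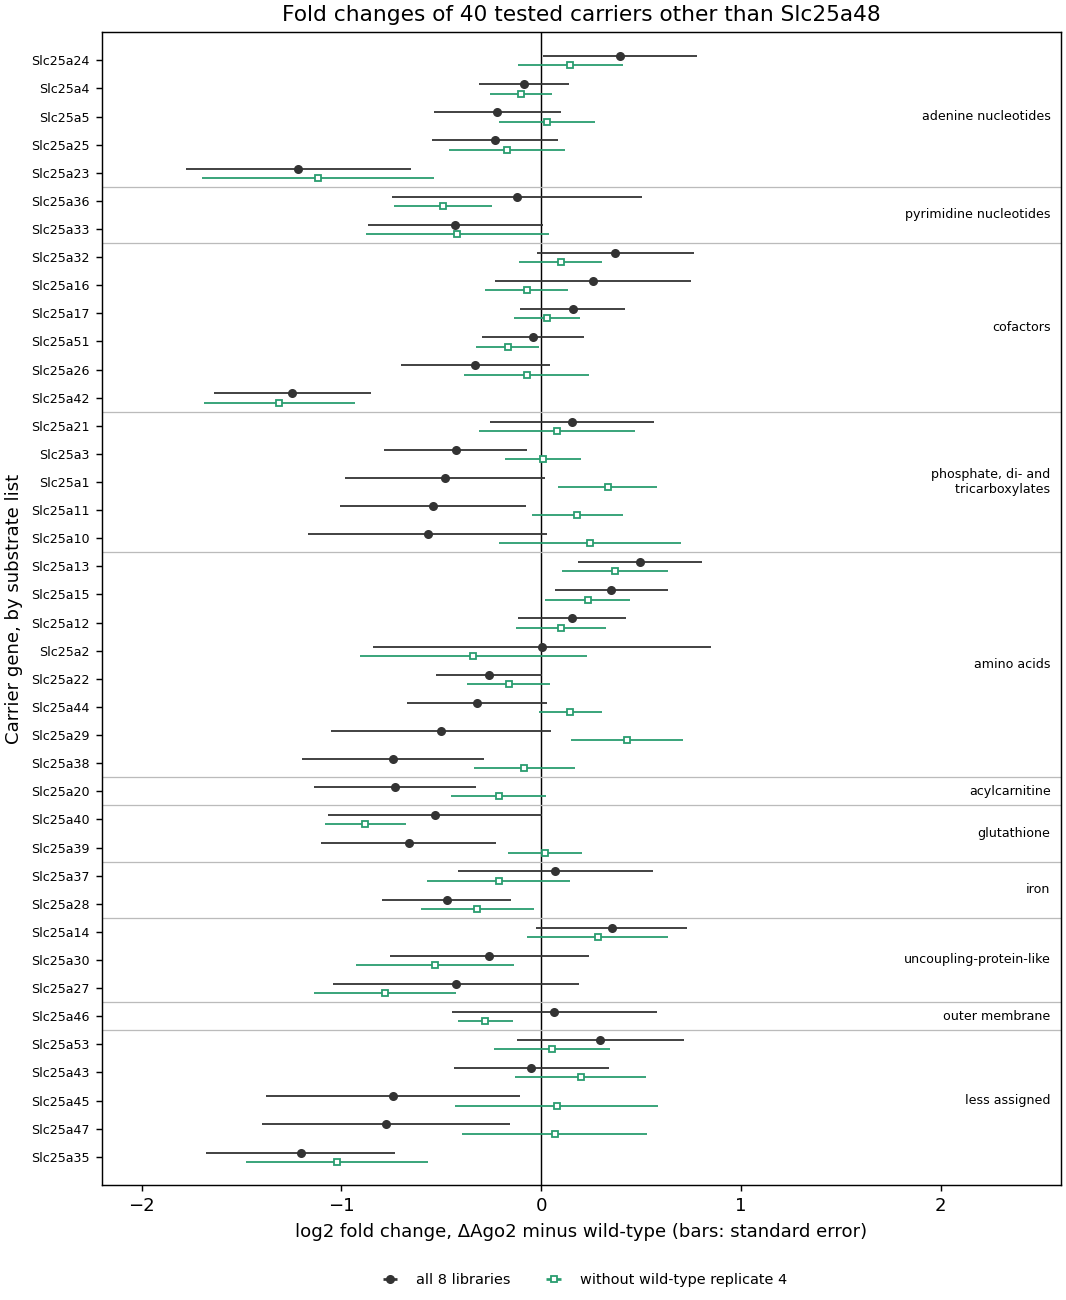
log2 fold change (ΔAgo2 minus wild-type) of 40 tested carriers other than Slc25a48, by substrate list, with the standard error from edgeR as bars. Filled circles use all 8 libraries and open squares leave out wild-type replicate 4. The values run from -1.25 for Slc25a42 to 0.49 for Slc25a13. In the 2 fits 15 carriers lie on opposite sides of 0, a count with no share over all genes beside it.

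Of the carriers of cofactors, 7 were tested, of which 3 lay above 0 and 4 below and none passed the adjusted threshold (median log2 fold change -0.040, and -0.073 without wild-type replicate 4). Slc25a42 (ENSMUSG00000002346.16, chr8:70184340-70212305, minus strand) exchanges coenzyme A for adenine nucleotides. It was at 8.44, 6.05, 18.6 and 8.91 CPM in wild-type replicates 1 to 4 and 4.79, 4.92, 4.41 and 3.59 CPM in ΔAgo2 replicates 1 to 4, with means of 10.5 ± 5.54 and 4.43 ± 0.595 CPM (SD, n = 4). All ΔAgo2 libraries lay below all wild-type libraries, the highest of which was replicate 3. The log2 fold change was -1.25 (standard error 0.39, edgeR adjusted p = 0.418, unadjusted p = 0.00963), and -1.31 without wild-type replicate 4 (edgeR adjusted p = 0.194). Without wild-type replicate 3, the highest library, it was -0.81. Over all alternatives its adjusted p ran from 0.0816 with DESeq2 to 0.835.

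Slc25a16, a relative of Slc25a42 also tied to coenzyme A, had a log2 fold change of 0.26, and Slc25a51, which takes up NAD+, of -0.040. Without wild-type replicate 4 they were -0.072 and -0.17.

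Among the carriers without a settled substrate, 5 were tested beside Slc25a48, 1 above 0 and 4 below (median -0.74), and without wild-type replicate 4 it was 4 above and 1 below (median 0.067). Slc25a35 (ENSMUSG00000018740.14, chr11:68968131-68974365, plus strand) was at 2.48, 3.06, 1.69 and 3.66 CPM in wild-type and 1.81, 1.54, 0.735 and 0.624 CPM in ΔAgo2 libraries. The groups overlapped through wild-type replicate 3, and the log2 fold change was -1.20 (standard error 0.47, edgeR adjusted p = 0.593), or -1.02 without wild-type replicate 4, where its unadjusted p was 0.0515 (edgeR). It overlaps Rangrf on the opposite strand, and reads of the pair could mix if the counting did not use strand. In all, 23 members overlap another gene and 10 a protein-coding one, the latter always on the opposite strand.

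Of the adenine nucleotide carriers, 5 of 7 were tested, with 1 above 0 and 4 below (median -0.22, and -0.10 without wild-type replicate 4). Slc25a23, an ATP-Mg/phosphate carrier that overlaps Crb3, had the smallest p of this list. It was at 9.31, 1.93, 3.24 and 5.84 CPM in wild-type and 1.53, 1.28, 1.96 and 3.95 CPM in ΔAgo2 libraries, groups that overlapped, with a log2 fold change of -1.22 (standard error 0.56, edgeR adjusted p = 0.678). Without wild-type replicate 1, its highest library, the value was -0.74. The abundant Slc25a5 and Slc25a4 had log2 fold changes of -0.22 (standard error 0.32) and -0.086 (standard error 0.23). Without wild-type replicate 4 they were 0.029 and -0.10. Slc25a24 was at 0.40 (standard error 0.39), at 0.15 without that replicate and at 0.80 without wild-type replicate 2, and its relative Slc25a25 was at -0.23. Both pyrimidine nucleotide carriers, Slc25a33 and Slc25a36, lay below 0, at -0.43 (standard error 0.44) and -0.12 (standard error 0.63), and without wild-type replicate 4 at -0.42 and -0.49.

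All 5 carriers of phosphate, di- and tricarboxylates were tested, 1 above 0 and 4 below. Their median was -0.48, and 0.18 without wild-type replicate 4. Slc25a3 was at 428, 549.6, 380.2 and 1085 CPM in wild-type and 471, 528, 388 and 427 CPM in ΔAgo2 libraries, with wild-type replicate 4 far above the others. Its log2 fold change was -0.43 with all libraries and 0.0086 without that replicate. Slc25a10 and Slc25a11, the dicarboxylate and the oxoglutarate/malate carriers, changed sign in the same way, from -0.57 and -0.54 to 0.25 and 0.18.

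Of the 9 amino acid carriers, 8 were tested, 4 above and 4 below 0 (median -0.13, and 0.12 without wild-type replicate 4). Slc25a13, which with Slc25a12 exchanges aspartate for glutamate in the malate-aspartate shuttle, had the highest log2 fold change of the 41. It was at 67.2, 104, 45.1 and 47.1 CPM in wild-type and 105, 99.2, 83.1 and 84.2 CPM in ΔAgo2 libraries, and the groups overlapped through wild-type replicate 2 alone. The log2 fold change was 0.49 (standard error 0.31, edgeR adjusted p = 0.740), and 0.79 without that replicate (edgeR unadjusted p = 0.0151). Slc25a12 was at 0.15 (standard error 0.27). Slc25a38, which supplies glycine for heme synthesis, had the smallest p of the list, with -0.74 (standard error 0.46, edgeR adjusted p = 0.740) and -0.085 without wild-type replicate 4. The ornithine carrier Slc25a15 was at 0.35 and the glutamate carrier Slc25a22 at -0.26, both with overlapping groups.

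The carnitine/acylcarnitine carrier Slc25a20, which brings fatty acids to oxidation, had a log2 fold change of -0.73 (standard error 0.40, edgeR adjusted p = 0.729), and -0.21 without wild-type replicate 4. Of the glutathione carriers, Slc25a39 had -0.66 (standard error 0.44), and 0.020 without that replicate. Slc25a40, its relative, was at 39.1, 45.8, 31.1 and 4.75 CPM in wild-type and 20.1, 16.5, 24.6 and 22.2 CPM in ΔAgo2 libraries. Wild-type replicates 1 to 3 were above all ΔAgo2 libraries and wild-type replicate 4 was below all of them. Its log2 fold change was -0.53 (standard error 0.54, edgeR adjusted p = 0.818) with all libraries and -0.88 (standard error 0.20, edgeR adjusted p = 0.113) without wild-type replicate 4, the smallest adjusted p of the 41 in that fit. Over all alternatives its adjusted p ran from 0.113 to 0.987.

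The iron importers Slc25a28 and Slc25a37 (mitoferrins) were at -0.47 (standard error 0.32) and 0.071 (standard error 0.49), and without wild-type replicate 4 at -0.32 and -0.21. Of the members close to the uncoupling proteins, Slc25a14 was at 0.35 and Slc25a30 at -0.26, and without that replicate at 0.28 and -0.53. Slc25a46, the outer membrane protein with a part in mitochondrial fission and fusion, was at 0.066 (standard error 0.51) and at -0.28 without wild-type replicate 4. The other 12 tested carriers had log2 fold changes from -0.78 to 0.37, 4 above 0 and 8 below, with edgeR adjusted p-values of 0.778 to 0.983 and wild-type means of 1.5 to 135 TPM.

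Which of 2 related carriers had the higher transcript level in LLC cells was compared within libraries. The pairs differ in sequence but share a substrate or a branch of the family. The comparison does not use the contrast between genotypes, and protein and transport were not measured. Of 13 pairs, 10 had both genes above 0 TPM in all 8 libraries, and each was tested by an exact permutation test over sign flips of the log2 TPM ratio (two-sided, n = 8, smallest possible p = 0.00781), with adjustment over the 10 pairs. The order was the same in all 8 libraries for 7 pairs, each with an exact permutation adjusted p of 0.0112. The test measures how far the libraries, of both genotypes, agree. A bias between 2 genes that all libraries share, for instance through GC content, would not show in it. Slc25a39 has 58.9% GC and Slc25a40 38.9%.

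Slc25a5 was above Slc25a4 by 1.5-fold as a geometric mean, with ratios of 1.34, 1.58, 1.06 and 2.49 in wild-type replicates 1 to 4 and 1.61, 1.65, 1.32 and 1.30 in ΔAgo2 replicates 1 to 4. Slc25a13, the aspartate/glutamate carrier known from liver, was above Slc25a12, the one known from brain and muscle, by 2.53-fold, with ratios of 2.79, 2.70, 1.65 and 1.86 and 2.92, 2.54, 3.39 and 2.92. Among the ATP-Mg/phosphate carriers, Slc25a24 was 18.7-fold above Slc25a25 and 106-fold above Slc25a23. Slc25a39 was 42.4-fold above Slc25a40, a ratio that reached 563 in wild-type replicate 4 and was 13.6 to 52.4 in the other 7 libraries. The ratio of Slc25a10 to Slc25a11 was 0.315 and that of Slc25a14 to Slc25a30 was 0.0873, so the second gene was the higher one in both.

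The other 3 pairs had libraries on both sides. The mitoferrin Slc25a28, known from many tissues, was below Slc25a37, the one known from red cell precursors, in 7 of 8 libraries, with a ratio of 0.494 (exact permutation test, adjusted p = 0.0347). Wild-type replicate 4 was the exception at 2.24. Slc25a16 was above Slc25a42 in 7 of 8 libraries, with a ratio of 2.98 (exact permutation test, adjusted p = 0.0293), and wild-type replicate 4 was again the exception at 0.467. Without that replicate both had an adjusted p of 0.0172 (exact permutation test), but the adjusted p of Slc25a28/Slc25a37 was 0.0521 to 0.0694 when any of the other 7 libraries was left out. For Slc25a16/Slc25a42 it was 0.0521 to 0.0586 when any library but wild-type replicates 3 and 4 was left out (exact permutation tests). The Slc25a16/Slc25a42 ratio was 2.49, 3.59, 1.75 and 0.467 in wild-type and 5.27, 4.39, 5.77 and 6.36 in ΔAgo2 libraries, ranges that do not overlap and whose difference was not tested. No share over other gene pairs stands beside this, and Slc25a42 alone already had groups that did not overlap. The ratio is therefore not a separate difference between the genotypes, and nothing is read from it. Slc25a33 and Slc25a36 did not show an order, with ratios of 0.772, 0.613, 1.40 and 13.9 in wild-type and 0.817, 1.10, 1.21 and 1.08 in ΔAgo2 libraries (exact permutation test, adjusted p = 0.625).

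**Figure D4:**
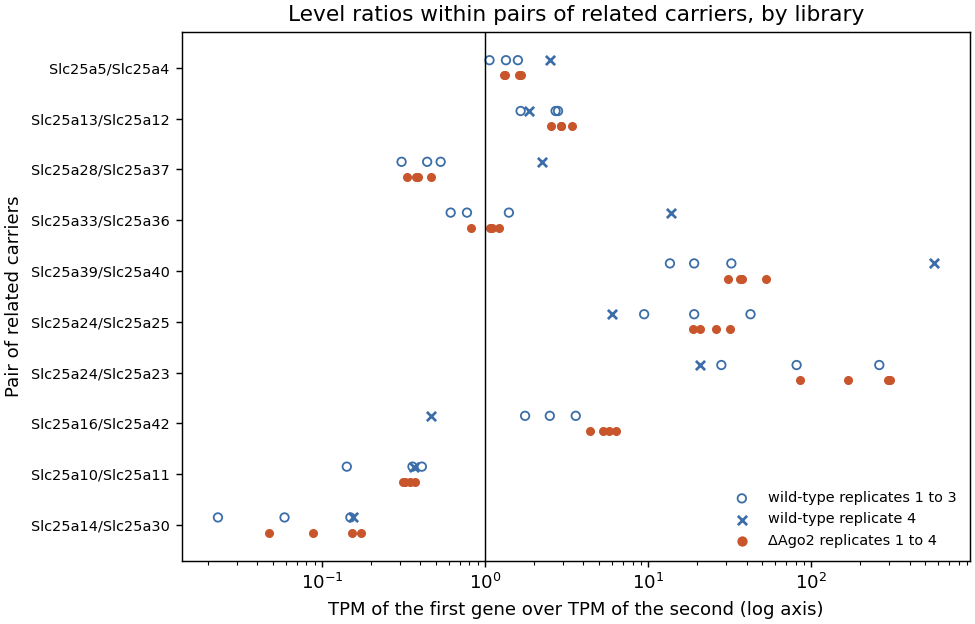
TPM of the first gene over TPM of the second for the 10 tested pairs of related carriers, on a log axis, with 1 point per library. Open circles are wild-type replicates 1 to 3, crosses wild-type replicate 4, filled circles ΔAgo2 libraries, and the line marks equal levels. In 7 pairs all 8 points lie on one side of the line, and in the other 3 the cross lies far from the rest, as at 13.9 for Slc25a33/Slc25a36.

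Carriers differed in how far wild-type replicate 4 lay from the rest of its group, and this went with their GC content. Over the 42 tested members, the deviation of this library from wild-type replicates 1 to 3 had a Spearman rho of 0.775 with the GC content of the annotated transcripts, beside 0.744 over all tested genes. For wild-type replicates 1 to 3, each set against the other two of these, rho over the members was 0.025, -0.096 and 0.067, and for the ΔAgo2 libraries, each set against the rest of its group, -0.28 to 0.41. The points are genes that share their libraries, so this is a description. Slc25a36, at 39.3% GC, was at 9.19 CPM in replicate 4 and 87.6 to 167 CPM in wild-type replicates 1 to 3, and Slc25a46, at 42.5% GC, was at 9.19 and 69.9 to 72.8 CPM. At the other end, Slc25a10, at 59.2% GC, was at 139 CPM in replicate 4 and 11.2 to 56.7 CPM in the others. Replicate 4 was the lowest of the wild-type libraries for 14 of the 42 members and the highest for 17. The median SD of a member over the wild-type libraries, on the log2(CPM + 0.1) scale, was 0.749 with it and 0.410 without it, and 0.268 over the ΔAgo2 libraries. Over all tested genes these medians were 0.755, 0.416 and 0.229, so the wider spread with replicate 4 was not particular to carriers.

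**Figure D5:**
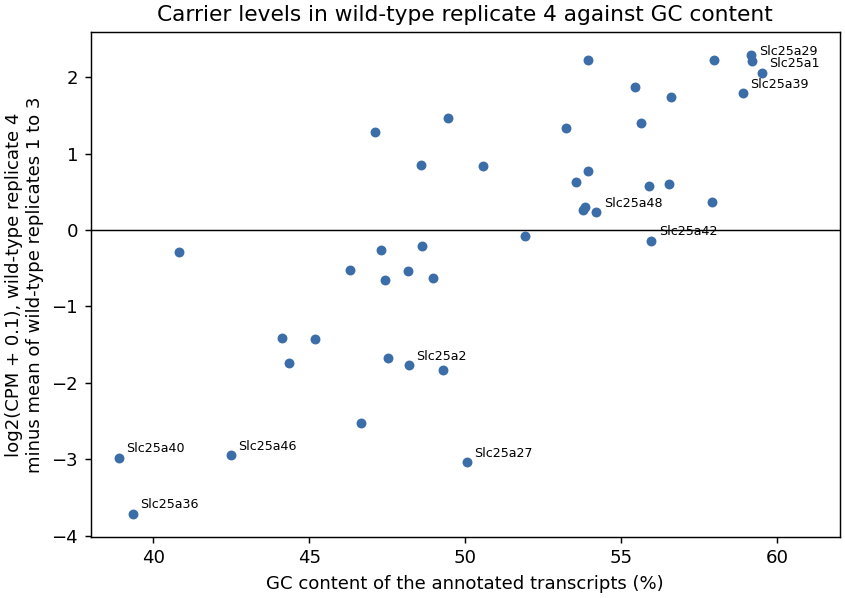
Deviation of wild-type replicate 4 from the mean of wild-type replicates 1 to 3, as log2(CPM + 0.1), against the GC content of the annotated transcripts in %, for the 42 tested carriers, with 10 members labelled. Members low in GC, such as Slc25a36, tend to lie below 0 and those high in GC, such as Slc25a39, above it (Spearman rho 0.775). There are exceptions, such as Slc25a42 at 56.0% GC (-0.14) and Slc25a3 at 47.1% GC (1.28).

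Genes around the carriers were read from the same edgeR fit, in lists fixed by name. None of these lists had a gene that passed an adjusted p of 0.05. Of the family members with other symbols, Ucp2, Mtch1 and Mtch2 were tested and lay below 0, and Ucp1 and Ucp3 were not tested. Mtch1, which sits in the outer membrane, was at 374, 383, 229 and 1645 CPM in wild-type and 362, 386, 348 and 384 CPM in ΔAgo2 libraries, so that its log2 fold change of -0.83 became 0.18 without wild-type replicate 4. Of the 13 genes of the TIM22 import route, 4 lay above 0 and 9 below (median -0.23, and -0.036 without wild-type replicate 4), and of 9 regulators of mitochondrial biogenesis 4 and 5 (median -0.29, and -0.081 without it). Among the import genes, Timm29 had groups that did not overlap, lower in ΔAgo2 cells (log2 fold change -0.39, edgeR adjusted p = 0.739). Over all tested genes, 2.98% were lower without overlap on CPM.

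Of 14 other pores and carriers of mitochondria, 7 lay above and 7 below 0. Mpc1, a subunit of the mitochondrial pyruvate carrier, was the only one with an unadjusted edgeR p under 0.05, where 7.34% of all tested genes had one. It was at 20.9, 17.6, 30.6 and 17.6 CPM in wild-type and 11, 11.4, 13.9 and 11 CPM in ΔAgo2 libraries, groups that did not overlap. Among all tested genes, 6.07% did not overlap in either direction and 2.98% as lower, so nothing particular is read from this. Its log2 fold change was -0.88 (standard error 0.28, edgeR adjusted p = 0.445), and -0.96 without wild-type replicate 4. Its partner Mpc2 was at 19.3, 15.3, 24.1 and 19.5 CPM and 13.1, 13.1, 12.8 and 16.9 CPM, with a log2 fold change of -0.48 (standard error 0.26, edgeR adjusted p = 0.729).

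Of 16 genes of choline uptake and oxidation, the pathway to which Slc25a48 has been linked, 8 were tested, 2 above 0 and 6 below (median -0.34, and 0.014 without wild-type replicate 4). Chdh, which oxidises choline in the matrix, was counted 0, 1, 0 and 0 times in the wild-type and 3, 1, 0 and 0 times in the ΔAgo2 libraries, at or under the floor, and Bhmt had 0 in all. Slc44a3, of a family of choline transporters, was also not tested, with 13, 9, 20 and 7 counts in the wild-type and 3, 0, 1 and 1 in the ΔAgo2 libraries, all of the latter at or under the floor and below the wild-type libraries. Slc44a1, a choline transporter of the plasma membrane and mitochondria, was at 17.5, 24, 25.2 and 8.88 CPM in wild-type and 17.5, 15.3, 11 and 17.4 CPM in ΔAgo2 libraries (log2 fold change -0.30, standard error 0.36, and -0.53 without wild-type replicate 4). Sardh, which oxidises sarcosine, had the only unadjusted edgeR p under 0.05 of this list, where 7.34% of all tested genes had one. It was at 2.34, 1.64, 4.71 and 15 CPM in wild-type and 1.92, 2.07, 1.45 and 1.34 CPM in ΔAgo2 libraries. The groups overlapped and wild-type replicate 4 was the highest library, and the log2 fold change of -1.80 (standard error 0.66, edgeR adjusted p = 0.546) was -0.77 without it.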

How the data were processed

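Polyadenylated RNA of 8 libraries of LLC cells was sequenced by the authors as stranded paired-end reads, which they aligned to ribosomal RNA and then to mm10 (STAR, per the labels) and counted on genes with featureCounts. The deposited table holds raw counts for 55487 genes, without normalization. A table of TPM, which the authors made from counts, gene length and library total, was deposited beside it. The strand setting, annotation release and handling of reads with several matches are not given in the sources used here, so related carriers could share reads. Slc25a5-ps, the pseudogene of Slc25a5, had at most 3 counts. Per the labels, each column was mapped to a genotype and replicate.

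Symbols, positions and GC content came from the GENCODE annotation of GRCm38, with 93 identifiers unmatched. Genes passing filterByExpr were scaled with TMM and tested with edgeR 4.0.16 (quasi-likelihood, two-sided, genotype only, Benjamini-Hochberg adjustment) in R 4.3.3. The study itself used DESeq2. Standard errors are the log2 fold change over the square root of F. Levels between genes were compared on TPM. DESeq2 1.42.0, limma 3.58.1 on log2(TPM + 1) and log2(TPM + 0.1), other scaling, no filter, GC correction, a replicate block and leaving out each library were alternatives. The methods were tested on simulated data.

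The members and lists were chosen with earlier results of these data known. Named are Slc25a48, the 5 carriers highest in wild-type cells, those with an unadjusted p under 0.05, the smallest p of each substrate list, the genes of the fixed pairs, untested members, and up to 3 genes with an unadjusted p under 0.05 of each other list. Slc25a1, Slc25a17, Slc25a27, Slc25a29, Timm29, Mpc2, Mtch1, Chdh, Bhmt, Slc44a1 and Slc44a3 were named after their values were seen. The results for 1 carrier and 1 marker are not reported here. The total counts set the precision, as do the 4 libraries per group.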

Additional observations from a re-analysis of the deposited data

Results flagged for a closer look

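Among 70 groups of 4 libraries examined on the log2(CPM + 0.1) scale, 1 library lay apart from the other 3 in 2 groups. Chance gives about 1 in 20, so 2 of 70 is not more than chance gives. The groups also share the same 8 libraries and are not independent. Slc25a46 in wild-type cells had a gap of 0.981 of the group's range, because wild-type replicate 4, at 9.19 CPM, lay below the other 3 at 69.9 to 72.8 CPM. Slc25a4 in wild-type cells had a gap of 0.871 of the range, because wild-type replicate 2, at 308.2 CPM, lay above the other 3 at 245 to 253 CPM. Both gaps are beyond Dixon's 95% critical value for 4 values.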

How the results depend on the processing

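No tested carrier other than Slc25a48 passed an adjusted p of 0.05 in any of the alternatives run. All genes called numbered 42, and 399 with DESeq2, 143 with no filter on low counts, 80 with the GC correction, 15 with limma on log2(TPM + 1), 16 with the same and no filter on low values, and 1 to 113 with 1 library left out (113 without wild-type replicate 4, 1 without ΔAgo2 replicate 1). The deviations of same-numbered libraries from their group means had r of -0.13, -0.047, 0.38 and 0.035 for replicates 1 to 4. Those of replicate 3 thus went together in part, and the wild-type means include wild-type replicate 4. Whether the numbers pair the libraries cannot be told from these values. The replicate block gave 18 calls, and 88 with the GC correction and the replicate block. Carriers with an unadjusted p under 0.05 numbered 3, then 1 in each of the 3 limma fits, where 6.0% to 7.3% of all genes passed, and 2 to 6 with 1 library left out. The 6 came without wild-type replicate 2, 2 of them higher and 4 lower in ΔAgo2 cells, where 12.5% of all genes passed.

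The median log2 fold change of the carriers, -0.26, was -0.037 with the GC correction and the replicate block, 0.074 with limma on log2(TPM + 1), with or without the filter, 0.079 on log2(TPM + 0.1), and -0.38 to -0.072 with 1 library left out. The TPM scale moved the median of all genes too, from -0.11 to 0.15 and 0.22, and to 0.011 without the filter, so directions near 0 depend on the scale. Single genes kept their direction in 279 of 310 values and in 227 of 248 with a library left out. These values are repeated fits of 31 of the named genes, Mpc1 and Sardh among them. Of the 31, 11 turned in at least 1 of the other alternatives and 14 with a library left out. The direction turned with library size alone (0.0055 for Slc25a4 and 0.034 for Slc25a51), the replicate block (0.25 for Slc25a36), the GC correction (-0.028 for Slc25a2 and -0.0068 for Slc25a46), both (0.19 for Slc25a10, 0.037 for Slc25a22, 0.022 for Slc25a25 and 0.0066 for Slc25a4), limma on log2(TPM + 1), with or without the filter (0.11 for Slc25a10, 0.044 for Slc25a25, 0.14 for Slc25a30, 0.54 for Slc25a36, 0.13 for Slc25a4, 0.054 for Slc25a5 and 0.19 for Slc25a51), and limma on log2(TPM + 0.1) (0.13 for Slc25a10, 0.054 for Slc25a25, 0.15 for Slc25a30, 0.65 for Slc25a36, 0.13 for Slc25a4, 0.055 for Slc25a40, 0.054 for Slc25a5 and 0.19 for Slc25a51). With 1 library left out, genes that turned had log2 fold changes of -0.91 to 0.25 for Slc25a10, -0.78 to 0.18 for Slc25a11, -0.072 to 0.61 for Slc25a16, -0.34 to 0.79 for Slc25a2, -0.41 to 0.041 for Slc25a25, -0.60 to 0.0086 for Slc25a3, -0.57 to 0.12 for Slc25a30, -0.70 to 0.041 for Slc25a33, -0.49 to 0.28 for Slc25a36, -0.21 to 0.43 for Slc25a37, -0.91 to 0.020 for Slc25a39, -0.28 to 0.22 for Slc25a46, -0.39 to 0.029 for Slc25a5 and -0.17 to 0.092 for Slc25a51. The mean log2 ratio ran from -1.33 to -0.92 for Slc25a28/Slc25a37, from 1.42 to 1.96 for Slc25a16/Slc25a42 and from -0.052 to 0.59 for Slc25a33/Slc25a36. The causes were not tested. Counts were lowest for the 5 untested carriers, for Slc25a48 in wild-type cells and for Slc25a2, which had 0 to 24 counts. Whether depth or absence of the transcript lay behind these low counts was not tested.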
